A study of Mus musculus with 6 samples.

Results

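Pairs of transcript identifiers (IDs) that stand next to each other in serial order, 1 of which was higher and the other lower in Rb1L/L than in Rb1+/+ cells, are described here. The table held 55419 UCSC-style transcript IDs, and 34 pairs with 68 different IDs met the criteria, out of 8580 neighbouring pairs in which both IDs had a mean of at least 2 CPM (the count divided by the library total, times 1000000). An ID of this kind consists of digits and letters that can be read as a serial number, and IDs were taken as neighbours when they lay 1 step apart. Within a pair, 1 ID had to be at least 2-fold higher and the other at least 2-fold lower in mean CPM + 0.1, with no overlap between the 3 libraries of each genotype in either ID. A further 15 opposite pairs held an ID at 0 in all libraries of 1 genotype and at 50 or more counts in each library of the other, and were set aside. The members were thus chosen on the genotype contrast itself. Their differences between genotypes are given as a description, without a test.

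The RNA came from mouse embryonic fibroblasts, which are primary cells of connective tissue cultured from E13.5 embryos and here collected at passage 4 while dividing, and it was freed of rRNA before sequencing. There were 3 libraries from Rb1+/+ (wild-type) cells and 3 from Rb1L/L cells, which carry the allele called L in the labels on both copies of Rb1. No treatment was given to either group, and the labels describe neither the change in the L allele nor the strain, nor whether replicates came from separate embryos. The spread between libraries may therefore be in part technical. By its title the study concerns the recruitment of condensin II by pRb and the expression of gene pairs transcribed divergently, and the question addressed here is which neighbouring transcript IDs differed in opposite directions between the genotypes.

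Rb1 encodes the retinoblastoma protein pRb, which restrains entry into the cell cycle by binding E2F transcription factors and which also recruits proteins that shape chromatin. Condensin II is a ring-shaped complex that organises chromosomes in interphase and mitosis. Divergent gene pairs are transcribed away from each other from a shared promoter region. Many genes also give several transcripts, through other start sites, splice choices or ends, and one such transcript can take the place of another while the output of the gene as a whole stays level. In the UCSC gene set, IDs were given out in runs along the genome, so that neighbouring IDs are commonly transcripts of the same locus or of adjoining loci. The file gives neither positions nor gene names, and 0 of the 55419 IDs matched the reference tables used here. Whether the IDs of a pair share a locus, lie on opposite strands or start at a shared promoter was not analysed here, and neither the marker genes of fibroblasts nor Rb1 itself could be looked up. No sequence is shown for the same reason.

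Library totals ran from 17674522 to 20525072 counts in Rb1+/+ and from 14325677 to 16432237 counts in Rb1L/L, so each Rb1L/L library was shallower than each Rb1+/+ library. Where an ID had 0 counts, an upper limit of 3 counts was taken, about the 95% limit under random (Poisson) counting alone. This limit is 0.146 CPM in the deepest and 0.209 CPM in the shallowest library. The ID with the most counts took 9.02% to 9.51% of the total in the Rb1+/+ libraries and in Rb1L/L replicate 1, but 0.115% in replicate 2 of Rb1L/L and 0.452% in its replicate 3. Those last 2 libraries stand apart in this respect, and the pairs found without each of them are given below. In bulk RNA, fewer cells of a type and less RNA per cell cannot be told apart.

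The 34 pairs made up 0.396% of the 8580 neighbouring pairs measured. By the same criteria 28 pairs, or 0.326%, had both IDs on the same side, 21 of them with both higher and 7 with both lower in Rb1L/L. Over all 17889 IDs with a mean of at least 2 CPM, 3.87% were at least 2-fold higher and 1.95% at least 2-fold lower in Rb1L/L without overlap. From 1 to 5 steps the share of opposite pairs fell with distance in serial order. At 2 steps 19 of 7526 measured pairs (0.252%) qualified, at 3 steps 13 of 7138 (0.182%), at 4 steps 12 of 6912 (0.174%) and at 5 steps 8 of 6787 (0.118%). Between 6 and 10 steps, distances added after the data had been seen, 1 to 11 pairs qualified. Those shares had no steady order, at 0.0759%, 0.138%, 0.093%, 0.171% and 0.0156%, and the one at 9 steps was close to the one at 4 steps. Pairs on the same side varied less with distance, from 0.182% to 0.326% over the 10 distances. These shares are counts over one table in which an ID can enter several pairs, and their difference was not tested.

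**Figure D1:**
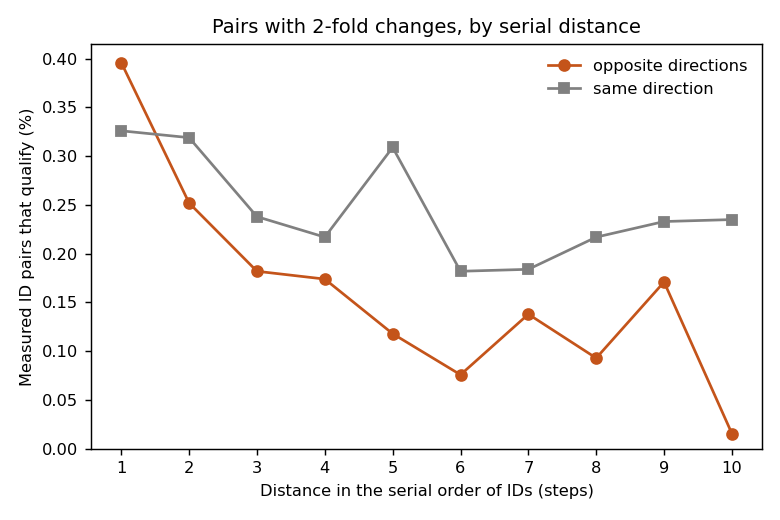
Percentage of measured ID pairs (both IDs at a mean of at least 2 CPM) that qualified, on the vertical axis, by their distance in serial order in steps, on the horizontal axis. Circles are pairs with IDs on opposite sides and squares pairs on the same side: the opposite pairs start at 0.396% at 1 step and are at 0.118% at 5 steps, then vary between 0.0156% and 0.171% from 6 to 10 steps, while the same-side pairs stay between 0.182% and 0.326%.

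Pairs are numbered from 1 to 34 by the mean of their summed CPM over the 6 libraries, pair 1 being the most abundant. The sums ran from 243 CPM down to 6.17 CPM with a median of 16.0 CPM, below the median of 38.6 CPM over all neighbouring pairs. In 7 pairs the sum was at least 50 CPM, in 5 it lay between 20 and 50 CPM, and in 22 it was lower. A pair's sum rested on 64 to 4919 counts in a library, with a median of 262. The rising IDs had a median log2 change of 2.02 (range 1.08 to 7.56), and the falling IDs of -2.91 (range -1.09 to -7.74), both on the log2(CPM + 0.1) scale. On that scale the median over all IDs of at least 2 CPM was 0.11 with library totals and -0.02 with TMM scaling (trimmed mean of M-values, which corrects for IDs that take up much of a library). The falling ID had the larger change in 22 pairs and the rising ID in 12. Changes of at least 8-fold were seen in 16 of the 34 falling IDs and in 5 of the 34 rising IDs. The share of all IDs changed this much was not counted. Some of these changes rest on uneven libraries or on zeros, as described below, and nothing is read from the difference between falling and rising IDs.

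In 27 of the 34 pairs (79.4%) the more abundant ID was not the same in the 2 genotypes: the falling ID had the higher mean in Rb1+/+ and the rising ID in Rb1L/L. Over all neighbouring pairs, the more abundant ID differed between genotypes in 15.7%, but the criteria of opposite 2-fold differences themselves favour such an exchange, and nothing is read from the contrast. In 3 pairs the rising ID had the higher mean in both genotypes, and in 4 the falling ID had. The share of the rising ID in the summed CPM of its pair had a median over the 34 pairs of 11.02%, 11.9% and 14.1% in Rb1+/+ replicates 1, 2 and 3. In Rb1L/L replicates 1, 2 and 3 the median was 87.0%, 90.8% and 98.5%. Rb1L/L replicate 1, the library whose most counted ID resembled the Rb1+/+ libraries, lay on the Rb1L/L side in these pairs. The criterion of no overlap requires this, so it does not show how that library compares with the others. In 18 pairs the rising ID made up less than 50% of the sum in every Rb1+/+ library and more than 50% in every Rb1L/L library. The criteria favour such a crossing, its share over all neighbouring pairs was not counted, and nothing is read from it.

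**Figure D2:**
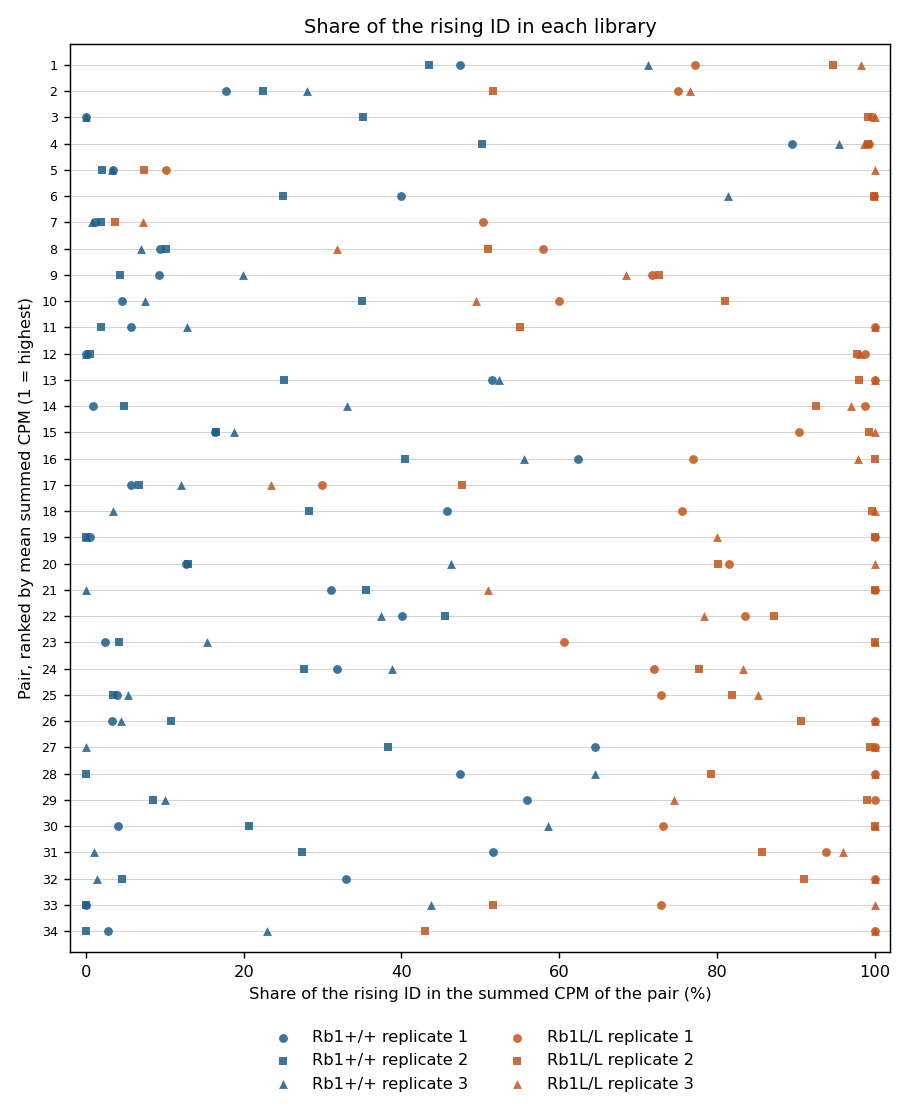
Share of the rising ID in the summed CPM of its pair, in percent on the horizontal axis, for each of the 34 pairs on the vertical axis, in each of the 6 libraries. Blue symbols are Rb1+/+ and orange symbols Rb1L/L, with a shape per replicate; in each pair all blue symbols lie left of all orange ones, which the choice of pairs requires, and the distance between the nearest of them ranges from 1.79 points in pair 7 to 97.3 points in pair 12.

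Some exchanges were near complete and others partial, as seen in the distance between the closest libraries of the 2 genotypes. The word exchange describes the shares within a pair only. Whether the IDs of a pair replace each other was not tested. In 8 pairs (3, 12, 14, 15, 19, 25, 26 and 32) the lowest share of the rising ID in Rb1L/L exceeded the highest in Rb1+/+ by at least 50 percentage points, and in 5 pairs by less than 10 points. The criteria require some gap, these counts were not made over all neighbouring pairs, and nothing is read from them. Pair 12 was the most complete exchange. Its falling ID measured 26.2, 21.3 and 22.3 CPM in Rb1+/+ replicates 1, 2 and 3, and 0.243, 0.565 and 0.558 CPM in Rb1L/L replicates 1, 2 and 3. Its rising ID had 0, 2 and 0 counts in the Rb1+/+ libraries and 19.6, 25.0 and 30.5 CPM in Rb1L/L. One ID was thus almost the sole source of the pair's counts in each genotype. The ratio of the rising ID's counts per library total was 723, with an exact 95% interval for counting error of 200 to 5980. The sum of pair 12 was 23.3 ± 2.55 CPM in the Rb1+/+ libraries and 25.5 ± 5.61 CPM in Rb1L/L (SD over 3 libraries each), a difference within the spread between libraries.

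Pair 19 showed a similar exchange with a lower sum in Rb1L/L. Its falling ID measured 21.2, 19.1 and 22.6 CPM in Rb1+/+, and had 0 counts in Rb1L/L replicates 1 and 2 and 1.19 CPM in replicate 3. Its rising ID had 2, 0 and 0 counts in the Rb1+/+ libraries and 12.05, 5.34 and 4.75 CPM in Rb1L/L, which makes 219 times as much per library total (exact 95% interval for counting error 60.3 to 1819). The rise in CPM of the rising ID was smaller than the fall of the falling ID. The sum was 21.0 ± 1.76 CPM in the Rb1+/+ libraries and 7.77 ± 3.71 CPM in Rb1L/L (SD over 3 libraries each), without overlap between the genotypes.

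Pair 3 was the most abundant of the 8 and uneven within Rb1+/+. Its rising ID had 0 counts in Rb1+/+ replicates 1 and 3 but 48.3 CPM in replicate 2, against 94.0, 147 and 104 CPM in Rb1L/L. Its falling ID measured 53.9, 89.2 and 99.1 CPM in the Rb1+/+ libraries and 0.304, 1.19 and 0 CPM in Rb1L/L. Rb1+/+ replicate 2 therefore held both IDs, while the other two Rb1+/+ libraries held the falling one alone. Without that replicate the rising ID would be at 0 in all remaining Rb1+/+ libraries, and the pair would be among those set aside. The sums, 96.9 ± 41.8 CPM and 115 ± 28.7 CPM (SD over 3 libraries each), overlapped.

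In pair 14 the falling ID measured 17.4, 14.8 and 13.0 CPM in the Rb1+/+ libraries and 0.304, 0.817 and 0.768 CPM in Rb1L/L. The rising ID was uneven in Rb1+/+, at 0.146, 0.744 and 6.39 CPM, and reached 25.0, 10.2 and 24.9 CPM in Rb1L/L. The highest Rb1+/+ value of the rising ID, in replicate 3, was still below the lowest Rb1L/L value, in replicate 2. In pair 15 the falling ID measured 19.6, 20.7 and 14.2 CPM in the Rb1+/+ libraries and 2.01, 0.0628 and 0 CPM in Rb1L/L, and the rising ID 3.85, 4.07 and 3.28 CPM against 18.9, 8.11 and 19.1 CPM. Both IDs of pair 15 were present in each Rb1+/+ library in nearly fixed proportion, with the rising ID at 16.4% to 18.8% of the sum. The sums of pairs 14 and 15 overlapped between genotypes.

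Pair 25 was even within genotypes. Its rising ID measured 0.487, 0.546 and 0.622 CPM in the Rb1+/+ libraries and 4.93, 6.85 and 6.003 CPM in Rb1L/L. Its falling ID measured 11.9, 15.4 and 11.03 CPM in the Rb1+/+ libraries and 1.83, 1.51 and 1.05 CPM in Rb1L/L. Its sum did not overlap between genotypes, at 13.3 ± 2.31 CPM and 7.39 ± 0.85 CPM (SD over 3 libraries each). In pair 26 the falling ID had 0 counts in Rb1L/L replicates 1 and 3 and its sum was also lower in Rb1L/L without overlap, at 6.27 ± 2.26 CPM against 14.1 ± 5.63 CPM (SD over 3 libraries each). In pair 32, the weakest of the 8 in abundance, the falling ID had 0 counts in the same 2 libraries, but the sums of 7.55 ± 0.958 CPM and 6.31 ± 1.55 CPM (SD over 3 libraries each) overlapped.

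The other 19 pairs in which the more abundant ID differed between genotypes were partial or uneven exchanges. The most abundant was pair 2, uc009lfz.1 (rising) and uc009lfy.1 (falling), whose gene and position are not given in the file. The value of uc009lfy.1 was 107, 113 and 99.2 CPM in Rb1+/+ replicates 1, 2 and 3, and 28.3, 37.5 and 44.5 CPM in Rb1L/L replicates 1, 2 and 3. For uc009lfz.1 it was 23.0, 32.8 and 38.5 CPM in the Rb1+/+ libraries and 85.4, 40.02 and 146 CPM in Rb1L/L. The falling ID was well apart between genotypes, whereas the rising ID in Rb1L/L replicate 2 lay barely above the highest Rb1+/+ library. The log2 change in the edgeR fit was -1.67 ± 0.15 for uc009lfy.1 and 1.39 ± 0.49 for uc009lfz.1 (SE). The sum was 138 ± 7.86 CPM in the Rb1+/+ libraries and 127 ± 57.7 CPM in Rb1L/L (SD over 3 libraries each), with the 3 Rb1+/+ values inside the range of the Rb1L/L values. With TMM scaling uc009lfz.1 overlapped between genotypes and the pair no longer qualified, nor did it without Rb1L/L replicate 3.

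Pair 6 shows an exchange in which a single library is uneven. Its falling ID had 1 count in each Rb1L/L library and 40.8, 62.7 and 1.36 CPM in the Rb1+/+ libraries, or 567 times as much per library total (exact 95% interval for counting error 194 to 2749). The rising ID measured 27.2, 20.9 and 5.94 CPM in the Rb1+/+ libraries and 79.1, 94.6 and 83.0 CPM in Rb1L/L. Both IDs were thus low in Rb1+/+ replicate 3, where their sum was 7.30 CPM against 68.0 and 83.6 CPM in replicates 1 and 2. In pair 9 the values were closer together: the falling ID measured 46.3, 47.2 and 23.8 CPM against 5.48, 7.85 and 8.31 CPM, and the rising ID 4.73, 2.13 and 5.88 CPM against 13.9, 20.9 and 18.01 CPM. The rising ID of pair 9 made up 68.4% to 72.7% of the sum in Rb1L/L, and 4.32% to 19.8% in Rb1+/+.

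Pair 10 was a partial exchange, and in Rb1L/L replicate 3 its falling ID was still slightly the higher. Its falling ID measured 23.2, 18.01 and 23.9 CPM in the Rb1+/+ libraries and 10.6, 6.16 and 13.8 CPM in Rb1L/L, and its rising ID 1.12, 9.67 and 1.92 CPM against 15.9, 26.3 and 13.47 CPM. Its sums, 25.97 ± 1.66 CPM and 28.8 ± 3.23 CPM (SD over 3 libraries each), overlapped. In pair 11 the falling ID measured 31.2, 33.5 and 32.8 CPM in Rb1+/+, was at 0 in Rb1L/L replicates 1 and 3, and was still at 12.6 CPM in Rb1L/L replicate 2. In pair 22 both IDs were present in every library, the rising ID at 37.4% to 45.5% of the sum in Rb1+/+ and at 78.4% to 87.3% in Rb1L/L. In pair 27 the falling ID had 1 count in all over the 3 Rb1L/L libraries and 300 counts over the Rb1+/+ libraries, 240 times as much per library total (exact 95% interval for counting error 42.7 to 9508).

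In 3 pairs (1, 4 and 16) the rising ID was the more abundant by its mean in both genotypes. In pairs 1 and 16 this order did not hold in every Rb1+/+ library. Pair 1, uc008swa.2 (rising) and uc008swb.2 (falling), was the most abundant pair of all, and its gene and position are likewise not given. The value of uc008swa.2 was 94.5, 87.9 and 169 CPM in Rb1+/+ replicates 1, 2 and 3, and 190.0, 293 and 262 CPM in Rb1L/L replicates 1, 2 and 3. For uc008swb.2 it was 105, 114 and 68.0 CPM in the Rb1+/+ libraries and 56.1, 16.3 and 4.47 CPM in Rb1L/L. In Rb1+/+ replicates 1 and 2 the falling ID was thus the higher, and replicate 3 set the order of the Rb1+/+ means. Rb1+/+ replicate 3 and Rb1L/L replicate 1 lay closest together in both IDs, with the rising ID at 71.3% (exact 95% binomial interval for counting error 69.9% to 72.6%) and 77.2% (75.9% to 78.5%) of the sum. The log2 change in the edgeR fit was 0.94 ± 0.31 for uc008swa.2 and -1.93 ± 0.92 for uc008swb.2 (SE). Pair 1 was the only pair whose sum was higher in Rb1L/L without overlap, at 274 ± 32.1 CPM against 213 ± 20.8 CPM (SD over 3 libraries each). With TMM scaling uc008swa.2 was less than 2-fold higher, at a log2 change of 0.94, and the pair no longer qualified; nor did it without Rb1+/+ replicate 1, Rb1+/+ replicate 2 or Rb1L/L replicate 2.

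**Figure D3:**
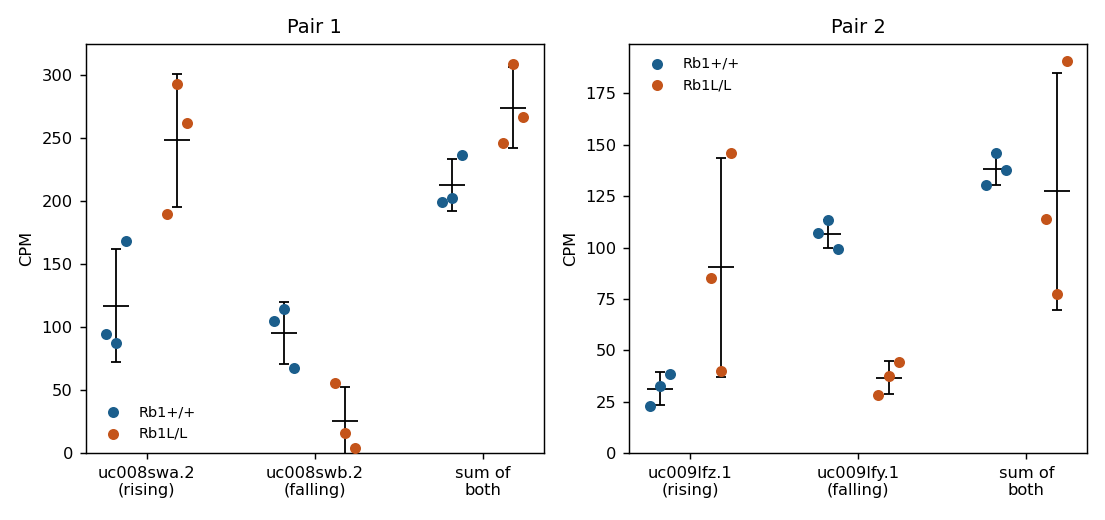
CPM on the vertical axis of the rising ID, the falling ID and their sum in pair 1 (left) and pair 2 (right), with 1 point per library, blue for Rb1+/+ and orange for Rb1L/L; black bars are the mean and SD of 3 libraries. The nearest libraries of uc009lfz.1 stand at 38.5 and 40.02 CPM, and the sum of pair 2 spreads from 77.5 to 190.5 CPM in Rb1L/L around the 3 Rb1+/+ values.

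In pair 4 a single library carried much of the difference in the falling ID. That ID measured 2.53, 64.7 and 2.55 CPM in the Rb1+/+ libraries and 0.609, 0.817 and 1.68 CPM in Rb1L/L, so that Rb1+/+ replicate 2 stood far above the other 5 libraries. Its rising ID measured 21.6, 65.4 and 53.7 CPM against 80.8, 99.8 and 123 CPM. Pair 4 no longer qualified without Rb1+/+ replicate 2, nor without Rb1+/+ replicate 1 or Rb1L/L replicate 3. In pair 16 the falling ID measured 4.53, 9.77 and 3.90 CPM in the Rb1+/+ libraries and 3.29, 0 and 0.698 CPM in Rb1L/L, and the rising ID 7.503, 6.65 and 4.87 CPM against 11.01, 25.6 and 32.4 CPM. Its sums of 12.4 ± 3.84 CPM and 24.3 ± 9.46 CPM (SD over 3 libraries each) overlapped.

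In 4 pairs (5, 7, 8 and 17) the falling ID remained the more abundant by its mean. In pair 8 the libraries of a genotype lay close together: its falling ID measured 45.9, 45.9 and 42.7 CPM in the Rb1+/+ libraries and 9.80, 9.05 and 15.2 CPM in Rb1L/L, and its rising ID 4.73, 5.16 and 3.17 CPM against 13.51, 9.42 and 7.12 CPM. The sum of pair 8 was 49.2 ± 2.93 CPM and 21.4 ± 2.56 CPM (SD over 3 libraries each), without overlap, and the difference in the rising ID was much smaller than that in the falling ID. In pair 17 the sum was likewise lower in Rb1L/L without overlap, at 12.2 ± 1.83 CPM against 22.4 ± 5.16 CPM (SD over 3 libraries each). Pairs 5 and 7 were uneven within Rb1L/L. In pair 5 the falling ID measured 92.7, 126 and 108 CPM in the Rb1+/+ libraries and 47.1, 55.6 and 0 CPM in Rb1L/L, and the rising ID 3.31, 2.68 and 3.68 CPM against 5.29, 4.40 and 45.7 CPM. The rising ID of pair 5 exceeded the falling ID in Rb1L/L replicate 3 and in none of the other 5 libraries, and without that library the pair no longer qualified. In pair 7 the falling ID measured 124, 68.0 and 69.6 CPM in the Rb1+/+ libraries and 4.08, 43.9 and 66.0 CPM in Rb1L/L, so that Rb1L/L replicate 3 lay just under the Rb1+/+ libraries, and the pair no longer qualified without Rb1+/+ replicate 1, Rb1L/L replicate 1 or Rb1L/L replicate 3.

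**Figure D4:**
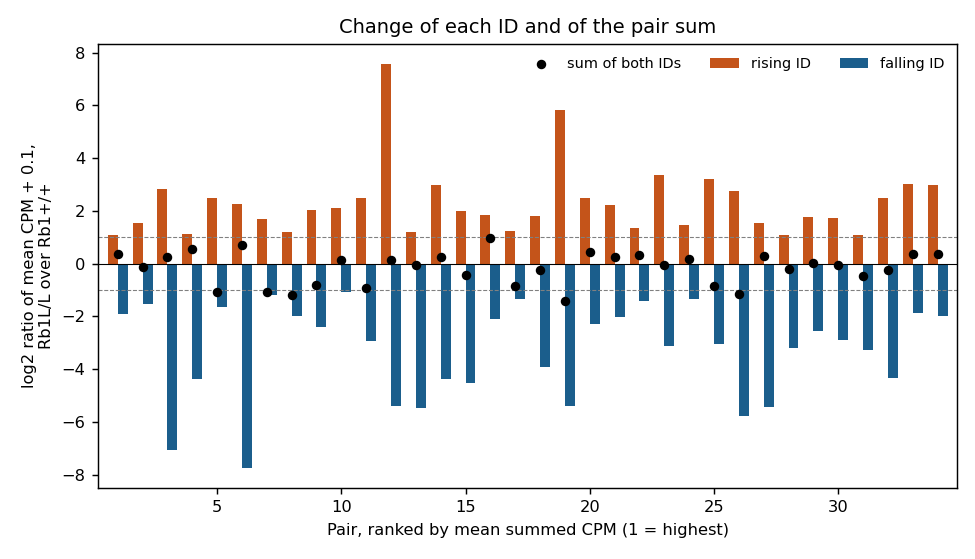
Log2 ratio of mean CPM + 0.1, Rb1L/L over Rb1+/+, on the vertical axis for the rising ID (orange bars), the falling ID (blue bars) and the sum of both (black points) of each of the 34 pairs on the horizontal axis; dashed lines mark 2-fold. The sums range from -1.42 in pair 19 to 0.97 in pair 16, and 29 of the 34 lie between the dashed lines.

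The summed CPM of both IDs differed between genotypes by less than 2-fold in 29 of the 34 pairs (85.3%), against 92.3% of all 8580 neighbouring pairs, and by less than 1.5-fold in 23 (67.6%), against 79.7%. The log2 ratio of the summed CPM had a median of -0.05, against 0.10 over all neighbouring pairs, and the median size of the ratio irrespective of sign was 0.36, against 0.27. The sum had the lower mean in Rb1L/L in 18 pairs and the higher in 16. Leaving out a library moved the median between -0.19 (without Rb1L/L replicate 3) and 0.04 (without Rb1L/L replicate 2), and TMM scaling to -0.17, so its sign is not settled. In 25 pairs the sums of the genotypes overlapped. In the other 9 (26.5%, against 19.4% of all neighbouring pairs) they did not, with pair 1 higher in Rb1L/L and pairs 5, 8, 9, 11, 17, 19, 25 and 26 lower. The sum was at least 2-fold apart in 5 pairs (14.7%; pairs 5, 7, 8, 19 and 26), each lower in Rb1L/L, against 7.70% of all neighbouring pairs in either direction. The choice of pairs bears on their sums, since 1 ID had to be higher and the other lower. The pairs were also less abundant than all neighbouring pairs, at a median sum of 16.0 CPM against 38.6 CPM. The part of either in these shares was not tested, and nothing is read from them.

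**Figure D5:**
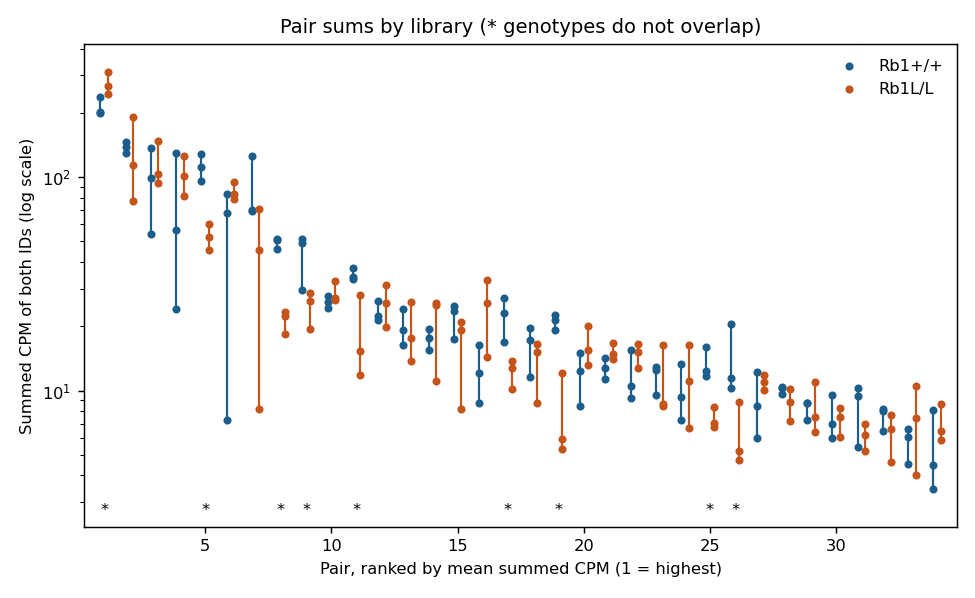
Summed CPM of both IDs on the vertical axis (log scale) for the 34 pairs on the horizontal axis, with 1 point per library, blue for Rb1+/+ and orange for Rb1L/L, and a line from the lowest to the highest library of a genotype. The 9 pairs with a star have sums that do not overlap between genotypes, and the sums of the other 25 do.

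Values of exactly 0 were frequent in the lower genotype of a member, and more so in falling IDs. Of the 34 falling IDs, 19 were at 0 in at least 1 Rb1L/L library, 11 of them in 2 libraries and 8 in 1. Of the 34 rising IDs, 8 were at 0 in at least 1 Rb1+/+ library, 4 of them in 2 libraries. Over all IDs with a mean of at least 2 CPM, 11.9% were at 0 in an Rb1L/L library and 8.18% in an Rb1+/+ library. The members were chosen as low in that genotype, which favours zeros there, and nothing is read from the contrast with all IDs. By library, 10, 5 and 15 falling IDs were at 0 in Rb1L/L replicates 1, 2 and 3, and 3, 4 and 5 rising IDs in Rb1+/+ replicates 1, 2 and 3. The deeper Rb1+/+ libraries and the lower depth of Rb1L/L run alongside this difference, and the part of depth in it was not tested. As the criteria require, no member was at 0 in a library of the genotype where it was higher. The spread was also larger in the genotype where a member was lower, and the part of zeros in this was not tested. The median SD of log2(CPM + 0.1) was 1.77 for falling IDs in Rb1L/L and 0.42 for the same IDs in Rb1+/+, and 0.84 for rising IDs in Rb1+/+ and 0.46 in Rb1L/L. Over all IDs of at least 2 CPM it was 0.35 in Rb1+/+ and 0.43 in Rb1L/L.

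The distance between the closest libraries of the genotypes varied widely among the members. In 27 of the 68 IDs they were at least 2-fold apart in CPM + 0.1, and in 10 they were less than 1.2-fold apart, the median being 1.63-fold. Both IDs of the pair were at least 2-fold apart in 8 pairs. The criteria already bar overlap, the same counts were not made over all IDs, and nothing is read from these numbers. At the edge of the criteria, pair 1 was the pair just inside the fold limit, with 2.12-fold for its rising ID, and the pair just outside had 1.99-fold. By abundance, the rising ID of pair 7 was just inside at a mean of 2.36 CPM, and the ID just outside had 1.92 CPM. Of the 34 pairs, 28 also qualified with TMM scaling, and pairs 1, 2, 4, 28, 31 and 33 did not. Without 1 library, between 24 (without Rb1L/L replicate 2) and 32 (without Rb1+/+ replicate 3) of the 34 still qualified, with 25 without Rb1L/L replicate 3 and 29 without each of the other 3 libraries. The pairs lost were 1, 4, 7, 19 and 30 without Rb1+/+ replicate 1, 1, 3, 4, 12 and 28 without Rb1+/+ replicate 2, and 27 and 31 without Rb1+/+ replicate 3. They were 7, 8, 23, 30 and 31 without Rb1L/L replicate 1, 1, 10, 11, 13, 17, 26, 27, 28, 32 and 34 without Rb1L/L replicate 2, and 2, 4, 5, 7, 19, 21, 24, 28 and 33 without Rb1L/L replicate 3. A pair is also lost this way when an ID is left at 0 throughout 1 genotype and so meets the rule for setting pairs aside. This held for the rising IDs of pairs 3 and 12 without Rb1+/+ replicate 2 and of pair 19 without Rb1+/+ replicate 1. It held for the falling IDs of pairs 11, 13, 26, 27, 28, 32 and 34 without Rb1L/L replicate 2. It also held for those of pairs 23 and 30 without Rb1L/L replicate 1, and 19 and 21 without Rb1L/L replicate 3. Such a loss does not mean that the genotypes lay closer together in that ID. The 10 pairs that qualified with TMM scaling and without each library in turn were pairs 6, 9, 14, 15, 16, 18, 20, 22, 25 and 29. Pairs lost through the rule for setting aside are not among these.

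Within genotypes, where the criteria bear less directly, the IDs of a pair showed a weak tendency to deviate in opposite directions. Deviations of log2(CPM + 0.1) from the genotype mean over the 6 libraries gave a median Pearson r of -0.32 over the 34 pairs (range -0.99 to 0.96), and 23 pairs (67.6%) had an r below 0. Over all neighbouring pairs the median was -0.10 and the share below 0 was 55.0%. In the 28 pairs on the same side the median r was 0.45, and 6 of them had an r below 0. The sign of r thus went with the direction on which the pairs were chosen, and the tendency cannot be told apart from that choice. An r below -0.5 was found in 8 of the 34 pairs (23.5%), against 29.6% of all neighbouring pairs, so strong opposite deviation was not more frequent among them. Pair 5 had the lowest r and pair 6 the highest. These values rest on 6 libraries that share depth and scaling within a pair.

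Of the 68 IDs flanking the 34 pairs, 65 are listed in the table and 30 had a mean of at least 2 CPM. Of these 30, 2 were at least 2-fold higher and 1 at least 2-fold lower without overlap (10.0%, against 5.82% of all IDs measured), and 27 did not meet both criteria. Of those 27, 6 were at least 2-fold apart in mean CPM with overlapping libraries, and their log2 changes ranged from -8.58 to 3.99. All 3 stood beside a rising ID, those next to pairs 3 and 19 being higher as well and the one next to pair 14 lower and at 0 in all Rb1L/L libraries. The flanking IDs had a median log2 change of 0.42, against 0.11 over all IDs measured, and a median size of change irrespective of sign of 0.72, against 0.37. In serial order the rising ID came first in 21 pairs and the falling ID in 13, and no ID belonged to more than 1 pair. All 68 members carry the prefixes uc007 to uc009, as do 92.3% of the IDs measured, and 57.4% have the version suffix 1, against 65.9%.

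In the edgeR quasi-likelihood fit over the whole table, all 68 members passed the filter on low counts and 39 had an unadjusted p under 0.05, against 8.35% of the 22085 IDs tested. Of these, 19 were rising IDs (background 4.09% for IDs higher in Rb1L/L) and 20 falling IDs (4.26% for IDs lower). None passed an adjusted p of 0.05 in edgeR (0 of 68, against 0.00906% of all IDs) or limma-voom, which gave 49 members an unadjusted p under 0.05 (background 9.64%). DESeq2 placed 29 members (12 rising and 17 falling) under an adjusted p of 0.05, against 3.83% of all IDs. As the members were chosen on this contrast, nothing is read from these shares.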

How the data were processed

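The values are counts, as whole numbers without normalization, in 1 table deposited by the authors with a row per UCSC-style transcript ID and a column for each of the 6 libraries. The submitters' processing notes list STAR 2.5.0a, StringTie 1.3.2, DESeq2 and the build mm9, with no roles. How reads of overlapping transcripts were divided among IDs, and whether strand was used, are points not given in the sources used here. The table held 0 columns of other samples. Libraries were prepared with an rRNA-depletion kit, per the labels' protocols.

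CPM was the count divided by the library total. Pairs were found as described in the report with Python 3.11.15. Rb1L/L was compared with Rb1+/+ over all IDs that passed filterByExpr by the edgeR 4.0.16 quasi-likelihood test (2-sided, TMM, Benjamini-Hochberg adjustment, genotype as the only term) in R 4.3.3, with DESeq2 1.42.0 and limma-voom 3.58.1 as alternatives. Both the edgeR fit and the pair search were checked on simulated counts. The pair search found the planted pairs. The edgeR fit called planted changes when the simulated libraries varied little, but not at the adjusted threshold when they varied as these libraries do, so few calls at that threshold do not show that IDs did not differ. The SE of a log2 change was its size over the square root of F. Intervals are exact binomial 95% intervals, which cover counting error only and leave out the spread between libraries. PCR copies are not independent molecules, so the intervals may be too narrow even for counting error. The pairs and the criteria were chosen with earlier results of these data known. Since the IDs carry no gene names, the 2 pairs with the highest mean summed CPM are named by ID and the others by rank. Same-numbered libraries were not taken as pairs.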

Additional observations from a re-analysis of the deposited data

How the results depend on the processing

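The count of 34 pairs was 33 with TMM-scaled CPM (28 shared), 33 and 31 with pseudocounts of 0.5 and 1 CPM, 47 at a minimum mean of 1 CPM and 49 with the all-or-none pairs kept. It was 18 at a minimum mean of 5 CPM, 71 with no minimum, 57 at 1.5-fold and 14 at 4-fold, each a looser or stricter form of the same criteria. At 2, 3, 4 and 5 serial steps it was 19, 13, 12 and 8, and at 6, 7, 8, 9 and 10 steps, added after seeing the data, 5, 9, 6, 11 and 1. Leaving out 1 library gave 51 to 96 pairs, since fewer libraries make an overlap less likely. The number of pairs with overlapping sums was 20 to 25 in each alternative run. The members at an unadjusted p under 0.05 numbered 32 to 49 over the alternatives, and those at an adjusted p under 0.05 were 0 in each edgeR and limma-voom alternative and 29 in DESeq2. Over all IDs, 1843 were at an unadjusted p under 0.05 in edgeR, 3114 in DESeq2 and 1171 to 2316 without 1 library, lowest without Rb1+/+ replicate 1. At an adjusted p under 0.05 there were 2 in edgeR, 804 in DESeq2, 1 with library size only, 0 with limma-voom, 0 with no filter on low counts and 0 to 2 without 1 library. The cause of the differences between tools was not tested. With the replicate number as a block, 40 members and 1575 IDs in all had an unadjusted p under 0.05, and 0 IDs passed the adjusted threshold. Deviations from the genotype mean correlated across IDs at 0.013, -0.028 and 0.0011 between libraries 1, 2 and 3 of both genotypes, and some libraries correlated best with another number, so the numbers were not taken to pair them. Each of the 4 named IDs kept its direction in the 12 alternatives, which the criterion of no overlap nearly requires. By the limit of 3 counts, which allows for random counting alone, a member at 0 could stand at up to 0.146 to 0.209 CPM, depending on library depth.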
